A study of Mus musculus with 15 samples.

Results

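The genes described here are 44 mouse genes with very long gene bodies, chosen by name from a list of genes with exceptionally long transcribed regions. All 44 were among the 21878 genes of the table, and 33 passed the level rule for testing, FPKM (fragments scaled to gene length and library size) of at least 0.5 in at least 5 of the 15 libraries, as did 11618 genes in all. In the RefSeq gene table (GRCm38.p6) the 44 genes spanned 302 kb (Ranbp17) to 2271 kb (Ptprd), with a median of 550 kb, and 44 of 44 covered at least 300 kb. The 11559 tested genes with a known span had a median of 22.1 kb. The level rule used measured values, and the list was drawn up with earlier results of these data known. Counts over it are therefore a description, given beside the share of all tested genes that met the same call.

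The livers came from 8-week-old male C57BL/6J mice, collected 1 day after a single intraperitoneal injection, with 5 libraries in each of 3 groups. The saline group received normal saline, the cisplatin group 10 mg/kg at 1 mg/mL in 0.9% saline, and the doxorubicin group 10 mg/kg at 2 mg/mL in sterile water, so vehicle and injected volume cannot be told apart from the doxorubicin effect. No group carried an engineered allele, and the mice were healthy and bore no tumor as far as the labels say. The labels name doxorubicin and its dose, although a remark in the series design calls this information missing, and the labels were followed. The labels number the libraries but do not say how the mice were housed or processed, so p-values measure the spread between these libraries.

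Cisplatin forms platinum crosslinks on DNA, and doxorubicin intercalates into DNA and poisons topoisomerase II. RNA polymerase II needs hours to cross a gene of this size, almost all of it intron, and a lesion or a trapped topoisomerase anywhere in the body can stop a polymerase before it reaches the end. Inhibitors of topoisomerase I are known from cultured neurons to lower the longest genes most. The members share no pathway: they encode receptor phosphatases, transcription factors and coregulators, junction and polarity scaffolds, kinases, vesicle traffic proteins, metabolic and modifying enzymes, RNA-binding proteins and a recombination factor.

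The start regions are shown because the list did not use them: the members were named for the length of their bodies. RefSeq promoter sequences (GRCm38.p6, 250 bases before to 50 bases after the start) were found for 35 of the 44 members. For 16 of the 35, 2 or more starts were listed, and the one farthest upstream was used. For Magi1 and Sox5 the start used lies well inside the RefSeq span, so it is not the start of the whole body. The promoters set beside the members include those of genes not tested here. Ptprd, Tcf4, Zfpm2, Auts2, Atxn1, Prkce, Tnik, Vps13b and Smyd3 had no entry. The GC share had a median of 62.7% over the 35 members and 52.7% over 27025 promoters, 1 a gene. The observed over expected CpG ratio had a median of 0.774 over the members and 0.389 over all promoters. The GC box letters GGGCGG, searched on both strands, occurred in 18 members (51.4%) and in 35.9% of all promoters, and TATAAA, also on both strands, in 2 members (5.71%) and in 14.2% of all promoters. Among the members with a promoter, GGGCGG occurred in 9 of the 15 called lower after cisplatin and in 4 of the 12 tested and not called. Printed are the members in this table with the largest falls after cisplatin, 5′ to 3′ on the gene's strand, with GGGCGG and its reverse complement CCGCCC in capitals. Pard3b starts at chr1:61638574-61638873 on the plus strand, Slc39a11 at chr11:113650043-113650342 on the minus strand and Gmds at chr13:32338495-32338794 on the minus strand.
Pard3b: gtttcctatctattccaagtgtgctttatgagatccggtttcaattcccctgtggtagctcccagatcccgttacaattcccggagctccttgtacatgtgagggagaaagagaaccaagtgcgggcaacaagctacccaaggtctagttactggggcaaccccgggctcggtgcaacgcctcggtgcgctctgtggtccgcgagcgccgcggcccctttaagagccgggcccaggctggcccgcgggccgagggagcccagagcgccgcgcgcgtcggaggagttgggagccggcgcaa
Slc39a11: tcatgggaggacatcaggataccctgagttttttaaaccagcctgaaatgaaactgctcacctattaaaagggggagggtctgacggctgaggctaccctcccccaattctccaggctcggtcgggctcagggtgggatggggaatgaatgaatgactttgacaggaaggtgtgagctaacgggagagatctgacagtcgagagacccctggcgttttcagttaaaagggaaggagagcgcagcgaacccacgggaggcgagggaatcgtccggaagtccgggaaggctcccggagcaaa
Gmds: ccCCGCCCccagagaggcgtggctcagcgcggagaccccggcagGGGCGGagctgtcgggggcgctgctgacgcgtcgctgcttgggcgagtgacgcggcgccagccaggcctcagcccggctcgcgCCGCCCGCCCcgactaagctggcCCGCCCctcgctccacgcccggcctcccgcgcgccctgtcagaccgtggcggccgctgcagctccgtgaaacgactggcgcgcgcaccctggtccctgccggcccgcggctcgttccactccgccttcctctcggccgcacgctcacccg
The search found 0 matches in Pard3b, 0 in Slc39a11 and 5 in Gmds, counting overlapping matches. A match or its absence is a description of these letters and not of any factor's binding.

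The libraries held 27.6 to 34.7 M reads (megareads) assigned to genes in the saline group, 25.3 to 31.0 M in the cisplatin group and 37.6 to 50.7 M in the doxorubicin group. Every doxorubicin library was deeper than every other library, so depth and doxorubicin cannot be told apart. The summed hepatocyte markers lay between 53471 and 67586 FPKM in the 15 libraries. That sum was mostly Alb, so it does not show the other markers. Of 9 tested hepatocyte markers, 1 (Hnf4a) fell after cisplatin at a limma adjusted p under 0.05. After doxorubicin 3 fell (Hnf4a, Ass1 and Tat) and 1 rose (Fgb). Of 5 neuron and muscle markers, Snap25 and Myh4 were at 0 FPKM, Ckm at 0.00815 and Rbfox3 at 0.150 in the saline mean. The fifth, Syt1, was at 2.65 ± 0.368 FPKM in saline (SD, n = 5) and fell after cisplatin (−1.69, limma adjusted p = 4.87e-05). Saline 2 lay outside the range of the other 4 saline libraries in 72.3% of tested genes, against 24.4% to 41.7% for each other saline library. The fifth doxorubicin column carries a number that no doxorubicin label has. It was taken as the remaining library of its group, is called the unnumbered doxorubicin library here, and was the highest of its group in 16 of the 33 tested members. Counts are therefore also given without these libraries. In bulk liver RNA, fewer cells of a type and less RNA per cell cannot be told apart. Per-library values below follow the library numbers, 1 to 5 for saline and cisplatin and 1 to 4 for doxorubicin, with the unnumbered doxorubicin library last.

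After cisplatin, 18 of the 33 tested members fell and 0 rose. Over all 11618 tested genes, 5.07% fell and 5.89% rose. The call was an adjusted p of at most 0.05 from limma, adjusted by Benjamini-Hochberg across the 11618 genes, and log2 changes are on the log2(FPKM + 0.1) scale, which understates changes of genes near 0.1 FPKM. The median change of the 33 members was −0.51, against −0.02 over all tested genes. In 17 members every cisplatin library lay below every saline library, which held for 4.50% of all tested genes. Both member counts include Pard3b, which passed the level rule only through its saline libraries and so could only be found higher in saline. Smyd3, Gmds and Prkca, also counted, had no cisplatin library at 0.5 FPKM and passed the rule only through the other groups. The counts by role were uneven: 5 of 6 enzymes and transporters, 4 of 4 traffic and scaffold proteins and 3 of 4 polarity and adhesion proteins fell, against 0 of 7 transcription factors. Whether these shares differ between roles was not tested.

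**Figure D1:**
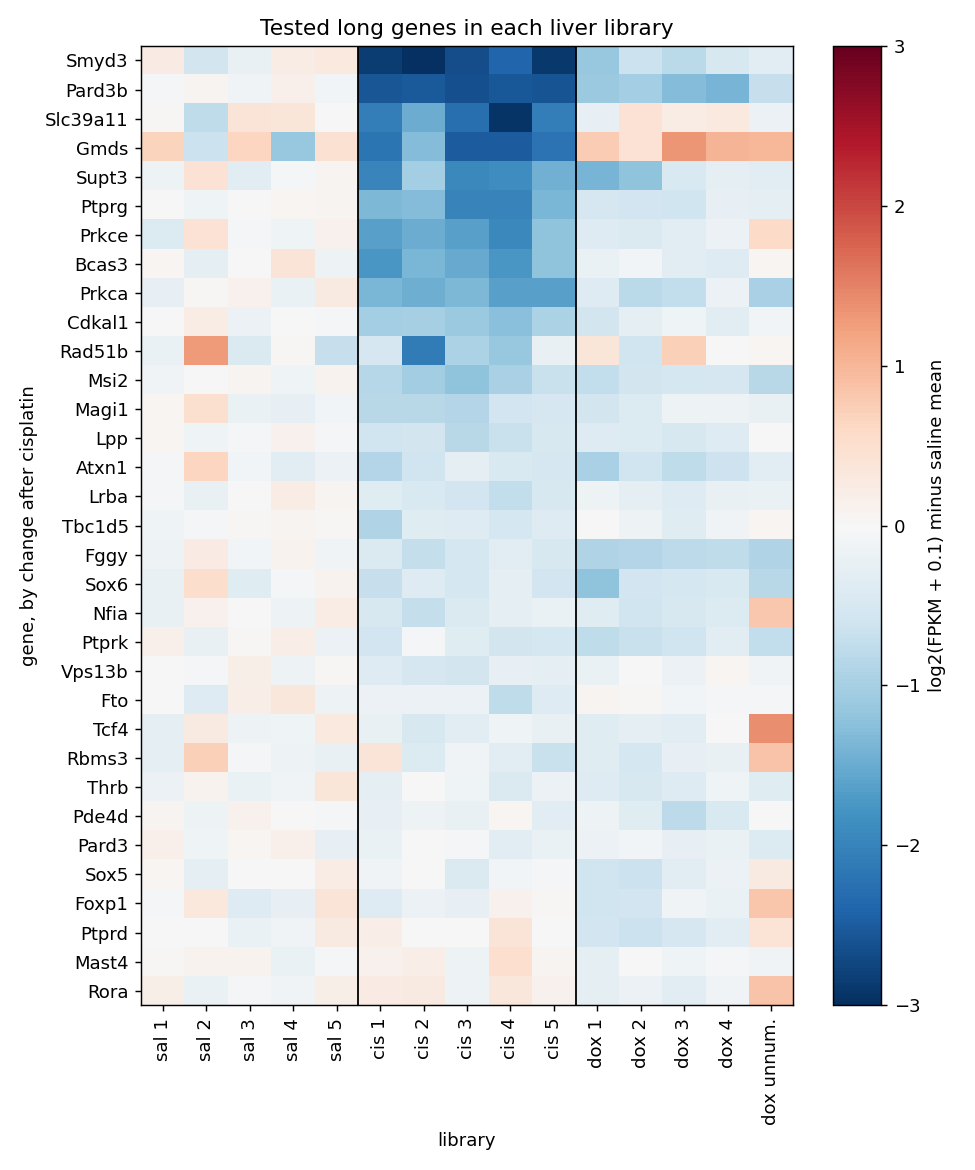
The color gives log2(FPKM + 0.1) minus the saline mean for the 33 tested long genes (rows, ordered by their change after cisplatin) in the 15 libraries (columns, with lines between the groups). The upper 10 rows are blue in the 5 cisplatin columns, and Gmds is red in the 5 doxorubicin columns.

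Among the enzymes and transporters, 3 of the 4 largest falls on the log2 scale were found, and the other, that of Pard3b, is given with the polarity proteins. Smyd3, a lysine methyltransferase (chr1:178951960-179518053), measured 1.19, 0.645, 0.837, 1.18 and 1.24 FPKM in saline, 0.0504, 0.0338, 0.0736, 0.111 and 0.0455 in cisplatin, and 0.4, 0.593, 0.519, 0.678 and 0.756 in doxorubicin libraries. The cisplatin libraries were far below all others, with 3 to 8 reads each where saline libraries had 52 to 117. The change was −2.76 ± 0.22 (SE, limma adjusted p = 5.31e-07), and the cisplatin mean was 6.17% of the saline mean. No cisplatin library reached 0.5 FPKM, so Smyd3 passed the level rule only through the other groups. Its adjusted p after cisplatin is therefore a description.

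Slc39a11, a zinc transporter of the ZIP family (chr11:113244851-113650200), measured 5.58, 3.12, 7.06, 6.94 and 5.39 FPKM in saline, 1.22, 1.86, 1.04, 0.617 and 1.20 in cisplatin, and 4.52, 7.29, 6.32, 6.65 and 4.81 in doxorubicin libraries. Only the cisplatin libraries were low, and saline and doxorubicin overlapped. After cisplatin it fell by 2.17 ± 0.25 on the log2 scale (limma adjusted p = 3.05e-05) to 21.1% of the saline mean.

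Gmds, the dehydratase that starts GDP-fucose synthesis from GDP-mannose (chr13:31819583-32338762), measured 0.803, 0.264, 0.784, 0.156 and 0.673 FPKM in saline, 0.0244, 0.131, 0, 0 and 0.0220 in cisplatin, and 0.852, 0.657, 1.31, 1.04 and 1.03 in doxorubicin libraries. Its 5 cisplatin libraries held 0 to 6 reads each and lay below all saline libraries, which themselves spread widely. After cisplatin it fell by 2.14 ± 0.35 on the log2 scale (limma adjusted p = 0.000832). Gmds, too, passed the level rule only through the other groups, with no cisplatin library at 0.5 FPKM. This adjusted p is therefore also a description. Cdkal1, a tRNA methylthiotransferase, went from 3.27 ± 0.347 to 1.51 ± 0.134 FPKM (SD, n = 5 each; change −1.06 ± 0.12, limma adjusted p = 2.17e-05), and its groups did not overlap. Fto, an RNA demethylase, was at 9.15 ± 1.79 and 7.22 ± 1.18 FPKM with overlapping groups and did not pass (limma adjusted p = 0.139), although it did without saline 2, with an adjusted p of at least 0.0374 over the alternatives. Fggy, a carbohydrate kinase and the most abundant member, also fell and is described with doxorubicin.

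Among polarity and adhesion proteins, Pard3b and its paralog Pard3 differed. Pard3b, a relative of the polarity scaffold Pard3 (chr1:61638667-62642284), measured 0.538, 0.585, 0.502, 0.624 and 0.520 FPKM in saline, 0.0101, 0.0135, 0.00490, 0.0111 and 0.00909 in cisplatin, and 0.201, 0.221, 0.166, 0.149 and 0.306 in doxorubicin libraries. The 3 groups did not overlap, and the cisplatin libraries held 1 to 3 reads each against 99 to 155 in saline. The change after cisplatin was −2.57 ± 0.19 (SE, limma adjusted p = 2.81e-07), and the cisplatin mean was 1.76% of the saline mean. Only the saline libraries carried Pard3b over the level rule, so the fit could find it only as higher in saline. Its adjusted p is therefore a description. Pard3, the junctional scaffold itself (chr8:127063381-127612286), measured 11.8, 9.70, 11.0, 11.8 and 8.99 FPKM in saline, 9.17, 10.5, 10.2, 8.52 and 9.22 in cisplatin, and 9.43, 10.0, 8.86, 9.27 and 7.96 in doxorubicin libraries. Its groups overlapped and it was called in no comparison (−0.16 ± 0.10 after cisplatin, limma adjusted p = 0.342), but without saline 5 it was called lower after doxorubicin (0.0483). The other members of this role fell after cisplatin: Magi1, a tight junction scaffold, from 4.77 ± 1.07 to 2.82 ± 0.362 FPKM, and Lpp, a LIM domain protein of focal adhesions, from 4.35 ± 0.315 to 2.80 ± 0.270 FPKM (SD, n = 5 each).

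Of the kinases, both protein kinase C members fell. Prkce (chr17:86167785-86657919) measured 1.42, 2.63, 1.88, 1.74 and 2.11 FPKM in saline, 0.552, 0.623, 0.549, 0.426 and 0.777 in cisplatin, and 1.43, 1.39, 1.48, 1.69 and 2.90 in doxorubicin libraries. All cisplatin libraries were below all others, and the highest value was that of the unnumbered doxorubicin library. After cisplatin Prkce fell by 1.58 ± 0.21 on the log2 scale (limma adjusted p = 0.00012) and Prkca by 1.48 ± 0.17 (3.12e-05), Prkca from 1.37 ± 0.222 to 0.421 ± 0.0486 FPKM. No cisplatin library reached 0.5 FPKM for Prkca, so its adjusted p is a description. Mast4, a kinase bound to microtubules, and Pde4d, a phosphodiesterase that degrades cyclic AMP, did not pass, with changes of 0.15 ± 0.15 and −0.18 ± 0.16. The tested kinase relatives Prkcd, Prkcz, Prkci and Prkch, which span under 200 kb, were not called after cisplatin.

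All 4 tested traffic and scaffold members fell after cisplatin. Bcas3, a propeller-fold protein linked to autophagy (chr11:85353110-85826058), measured 5.39, 4.23, 5.25, 6.77 and 4.64 FPKM in saline, 1.48, 1.94, 1.76, 1.47 and 2.19 in cisplatin, and 4.48, 4.86, 4.08, 3.94 and 5.38 in doxorubicin libraries. The cisplatin libraries stood apart below both other groups, which overlapped. The change was −1.52 ± 0.14 (SE, limma adjusted p = 4.59e-06), to 33.6% of the saline mean. The other 3 fell less: Lrba, a BEACH domain protein of vesicle traffic, by 0.52 ± 0.11, Tbc1d5, a Rab GTPase activating protein, by 0.51 ± 0.12, and Vps13b, a lipid transfer protein of the Golgi, by 0.39 ± 0.10 on the log2 scale. The Vps13b call did not hold without saline 3 or without cisplatin 3, with an adjusted p of at most 0.0717 over all alternatives.

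Receptor phosphatases, coregulators and RNA-binding proteins gave 1 or 2 falls each after cisplatin. Ptprg (chr14:11553440-12242041) measured 2.26, 2.07, 2.31, 2.37 and 2.42 FPKM in saline, 0.834, 0.863, 0.494, 0.493 and 0.814 in cisplatin, and 1.59, 1.50, 1.47, 1.91 and 1.88 in doxorubicin libraries. The 3 groups did not overlap, with saline highest and cisplatin lowest (−1.61 ± 0.16 after cisplatin, limma adjusted p = 7.07e-06). Ptprd, the member with the longest RefSeq span (chr4:75941237-78211742), measured 9.77, 9.96, 8.64, 9.23 and 12 FPKM in saline, 11.4, 9.73, 9.99, 12.8 and 9.96 in cisplatin, and 6.64, 6.24, 6.88, 7.75 and 13.1 in doxorubicin libraries. Saline and cisplatin overlapped throughout (0.12 ± 0.17, limma adjusted p = 0.704). Ptprk was near the threshold (−0.41 ± 0.12, adjusted p = 0.0408), and its call was lost without any of 9 single libraries: saline 1, 3 or 4, cisplatin 1, 3, 4 or 5, or doxorubicin 2 or 3, with an adjusted p of at most 0.113 over all alternatives.

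Supt3, a subunit of the SAGA coactivator complex (chr17:44777118-45119294), measured 3.01, 4.58, 2.66, 3.26 and 3.57 FPKM in saline, 0.776, 1.60, 0.802, 0.852 and 1.18 in cisplatin, and 1.21, 1.4, 2.41, 2.77 and 2.69 in doxorubicin libraries. Every cisplatin library was below every saline library (−1.65 ± 0.24, limma adjusted p = 0.000338). Msi2, an RNA-binding protein of the Musashi family (chr11:88339382-88718306), measured 4.58, 5.01, 5.27, 4.54 and 5.36 FPKM in saline, 2.67, 2.36, 2.08, 2.48 and 3.09 in cisplatin, and 2.95, 3.37, 3.42, 3.48 and 2.74 in doxorubicin libraries. Both drug groups lay below all saline libraries (−0.95 ± 0.11 after cisplatin, limma adjusted p = 4.76e-05). Rad51b, which acts in homologous recombination, had a mean of 1.68 ± 1.16 FPKM in saline and 0.763 ± 0.371 in cisplatin (SD, n = 5 each) and did not pass (adjusted p = 0.105), and Rbms3, an RNA-binding protein, did not pass either (0.672).

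The 7 tested transcription factors were Tcf4, Foxp1, Rora, Nfia, Thrb, Sox5 and Sox6, and their changes after cisplatin ran from −0.49 (Sox6) to 0.16 (Rora), none called. Nfia, a nuclear factor I protein and the most abundant of them (chr4:97578066-98118876), measured 5.88, 7.56, 6.95, 6.20 and 8.09 FPKM in saline, 4.90, 4.17, 5.10, 5.65 and 5.97 in cisplatin, and 5.33, 4.49, 4.87, 5.14 and 12.1 in doxorubicin libraries. Saline and cisplatin overlapped by a single library on each side (−0.42 ± 0.21, limma adjusted p = 0.225). Without the unnumbered doxorubicin library, which shares its spread with the other groups in the fit, Nfia was called lower after cisplatin, with an adjusted p of at least 0.027 over all alternatives. Rora, the orphan nuclear receptor known from the circadian clock, was at 5.38 ± 0.651 FPKM in saline and 6.04 ± 0.785 in cisplatin (SD, n = 5 each).

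**Figure D2:**
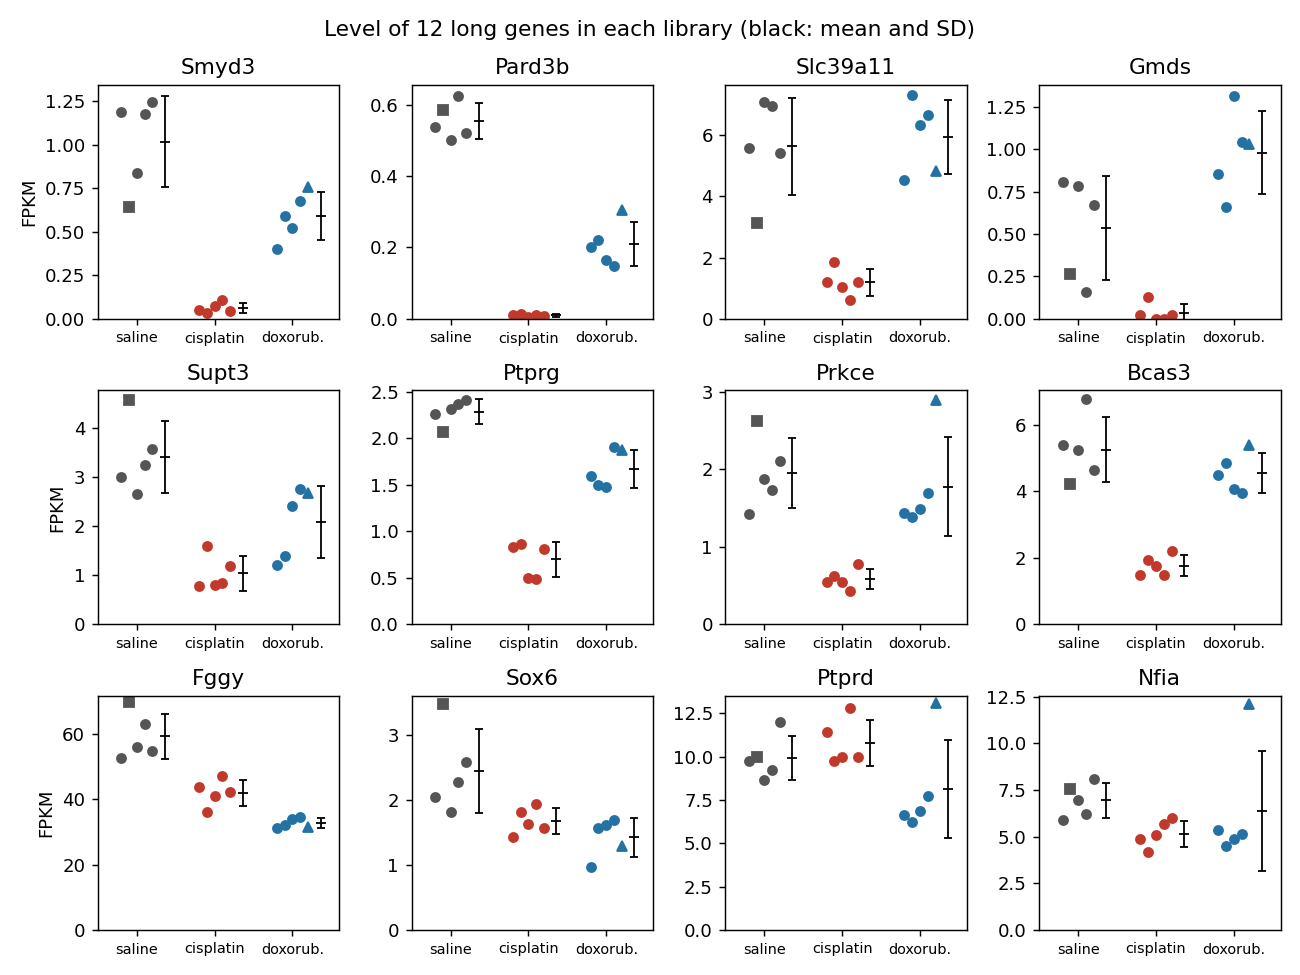
FPKM in each library for 12 members, with the mean and SD of each group of 5 in black; squares mark saline 2 and triangles the unnumbered doxorubicin library. In the first 8 panels, Smyd3 to Bcas3, the cisplatin libraries lie below all saline libraries, while Ptprd and Nfia overlap and carry a high triangle at 13.1 and 12.1 FPKM.

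After doxorubicin, 12 of the 33 tested members fell and 0 rose. Over all tested genes, 16.6% fell and 14.0% rose, so the members' count stands against a much larger background than for cisplatin. The median change was −0.27, against −0.05 over all tested genes, and in 7 members every doxorubicin library lay below every saline library (11.1% of all tested genes). The count depended on single libraries: it was 7 without doxorubicin 1 and 14 without the unnumbered library. Both drug groups were compared with the same 5 saline libraries, so the lists of falls are not independent. Of the 33 members, 9 fell after both drugs (Ptprg, Ptprk, Supt3, Lpp, Pard3b, Prkca, Smyd3, Fggy and Msi2), 9 were called after cisplatin alone, 3 after doxorubicin alone and 12 after neither. Over all tested genes the same classes held 3.43%, 1.64%, 13.1% and 81.8%, and since the saline libraries are shared, nothing is read from the overlap.

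The 6 largest falls after doxorubicin were those of Pard3b, Fggy, Supt3, Sox6, Smyd3 and Atxn1. Pard3b fell by 1.10 ± 0.19 on the log2 scale (limma adjusted p = 0.000345), to 37.7% of the saline mean. The limit that the level rule sets for Pard3b holds here too, and both member counts after doxorubicin include it. Fggy, the carbohydrate kinase (chr4:95557480-95926939), measured 52.7, 69.7, 56.1, 63.0 and 54.7 FPKM in saline, 43.7, 36.1, 40.9, 47.1 and 42.3 in cisplatin, and 31.3, 32.0, 34.1, 34.6 and 31.5 in doxorubicin libraries. The 3 groups did not overlap, and here doxorubicin was lowest: −0.85 ± 0.09 after doxorubicin (limma adjusted p = 4.55e-06) and −0.49 ± 0.09 after cisplatin (0.00222). Xylb, a short relative of Fggy in the same kinase family spanning 36.4 kb, also fell after doxorubicin (−0.90, limma adjusted p = 0.00325) and did not pass after cisplatin (−0.46, 0.167).

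Sox6, an SRY-related transcription factor (chr7:115470872-116040776), measured 2.04, 3.47, 1.82, 2.27 and 2.59 FPKM in saline, 1.42, 1.81, 1.63, 1.94 and 1.57 in cisplatin, and 0.966, 1.56, 1.61, 1.69 and 1.29 in doxorubicin libraries. The doxorubicin libraries lay below all saline libraries (−0.73 ± 0.18, limma adjusted p = 0.00508), and the cisplatin libraries overlapped them. Atxn1, a corepressor mutated in a spinocerebellar ataxia (chr13:45549755-45964991), measured 3.25, 5.31, 3.17, 2.71 and 2.97 FPKM in saline, 1.80, 2.21, 2.79, 2.44 and 2.37 in cisplatin, and 1.67, 2.19, 1.96, 2.15 and 2.67 in doxorubicin libraries. Only its doxorubicin libraries were clear of the saline group (−0.66 ± 0.17, limma adjusted p = 0.00815). After cisplatin its change was −0.54 ± 0.17 with an adjusted p of 0.0552, and it was called without saline 4 or without the unnumbered doxorubicin library, so for Atxn1 the drugs are not shown to differ (difference −0.12 ± 0.17, limma adjusted p = 0.678).

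Supt3 (−0.73 ± 0.24, limma adjusted p = 0.0314) and Smyd3 (−0.69 ± 0.22, 0.0239) fell after doxorubicin with groups that overlapped saline. The Supt3 call was lost without saline 2 or 5 or doxorubicin 1 or 2. The Smyd3 call was lost without saline 1, 4 or 5 or doxorubicin 1 or 3. Their adjusted p reached at most 0.0877 and 0.0662 over the alternatives that kept the gene. Msi2 (−0.62 ± 0.11, limma adjusted p = 0.000594) and Ptprk (−0.62 ± 0.12, 0.00122) were clear of the saline group. Thrb, the main thyroid hormone receptor of liver, fell by 0.35 ± 0.12 on the log2 scale from 4.34 ± 0.769 to 3.36 ± 0.314 FPKM (SD, n = 5 each), with overlapping groups and an adjusted p of 0.0381 that reached at most 0.171 over the alternatives, and its call was lost without saline 2 or 5 or any doxorubicin library other than doxorubicin 4. The calls of Ptprg and Lpp were also close to the threshold (0.0465 and 0.0296) and were each lost without several single libraries, which for Ptprg were saline 1, 3, 4 or 5 and doxorubicin 1, 2 or 3, and for Lpp saline 1 or 4 and doxorubicin 1, 2, 3 or 4. Their adjusted p reached at most 0.129 and 0.0936.

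Several uncalled values after doxorubicin rested on the unnumbered library. Ptprd had a doxorubicin mean of 8.13 ± 2.84 FPKM with that library (SD, n = 5) and 6.88 ± 0.640 without it (n = 4), Nfia of 6.39 ± 3.21 and 4.96 ± 0.365, and Rora of 5.61 ± 2.29 and 4.59 ± 0.288. Without it Ptprd, Nfia and Sox5 were called lower than saline. Gmds differed most in the other direction, with 0.978 ± 0.243 FPKM after doxorubicin against 0.536 ± 0.304 in saline (0.90 ± 0.35, limma adjusted p = 0.0608). Gmds was called higher without saline 1, without saline 3 or without cisplatin 2, and with a pseudocount of 0.5 or 1, with an adjusted p of at least 0.0264 over the alternatives.

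**Figure D3:**
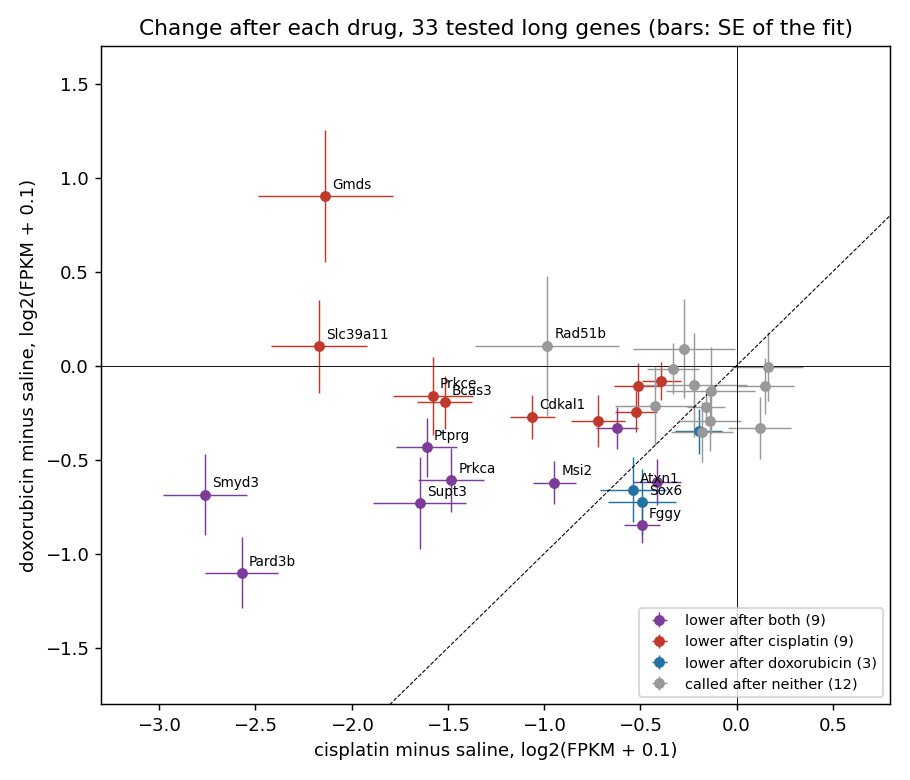
Change after cisplatin (x) against change after doxorubicin (y) for the 33 tested members, both as log2(FPKM + 0.1) differences from saline with the SE of the fit as bars; the dashed line marks equal changes. Both axes use the same saline libraries. Smyd3, Pard3b, Slc39a11 and Gmds lie far left of the line, and Fggy lies below it.

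The drugs were compared directly at the same dose in mg/kg and the same day, in libraries that also enter the comparisons with saline. Of the 33 members, 14 were higher after doxorubicin than after cisplatin and 1, Fggy, was lower. Over all tested genes 8.89% were higher and 10.7% lower. In 12 members every doxorubicin library lay above every cisplatin library, against 6.89% of all tested genes. Both member counts include Pard3b, Smyd3, Gmds and Prkca, which had no cisplatin library at 0.5 FPKM. They passed the level rule only through other groups, so their adjusted p-values here are a description. The median difference was 0.31, against −0.02 over all tested genes. The 6 largest were those of Gmds (3.04 ± 0.35, limma adjusted p = 2.21e-05), Slc39a11 (2.27 ± 0.25, 1.25e-05), Smyd3 (2.08 ± 0.22, 8.09e-06), Pard3b (1.47 ± 0.19, 5.6e-05), Prkce (1.42 ± 0.21, 0.000171) and Bcas3 (1.32 ± 0.14, 1.18e-05). Of these 6, Slc39a11, Prkce and Bcas3 stood after doxorubicin at 105%, 90.8% and 86.5% of their saline mean, with overlapping groups, while cisplatin had left them at 21.1%, 29.9% and 33.6%. The Prkce mean after doxorubicin was 1.78 FPKM with the unnumbered library and 1.50 without it, against 1.96 in saline. Fggy differed the other way by −0.36 ± 0.09 (limma adjusted p = 0.0115), to 77.9% of the cisplatin mean.

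Weaker differences between the drugs did not all hold. Magi1, Tbc1d5, Vps13b and Rad51b passed at adjusted p of 0.0413, 0.0318, 0.0399 and 0.0494 and reached adjusted p of at most 0.156, 0.142, 0.128 and 0.18 over the alternatives. All 4 lost the call without the unnumbered doxorubicin library. Magi1 also lost it without saline 1 or 5, cisplatin 1, 2 or 3, or doxorubicin 2, 3 or 4, and Vps13b without saline 1 or 5, cisplatin 1, 2 or 3, or doxorubicin 2 or 4. Tbc1d5 lost it without cisplatin 1 or 4 or doxorubicin 1, 2 or 4, and Rad51b without saline 1, 3 or 4, cisplatin 1, 2, 3 or 4, or doxorubicin 1, 3 or 4. Without that library 11 members were higher and 3 lower after doxorubicin than after cisplatin, and Ptprd and Rora joined Fggy as lower.

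The 11 members below the level rule were Ptprm, Esrrg, Glis3, Zfpm2, Maml2, Maml3, Auts2, Prkg1, Tnik, Ranbp17 and Ccser1. At the rule's edge, Esrrg reached 0.5 FPKM in 3 libraries and was left out, while Pard3b and Rbms3 reached it in 5, for Pard3b the 5 saline libraries, so that Pard3b could enter only as a gene higher in saline. Gmds reached it in 8 libraries and Smyd3 in 9. With no filter, 17788 genes above 0 in at least 1 library were fitted, and the members lower after cisplatin were 22 (3.55% of all genes so fitted) and after doxorubicin 12 (10.7%). Esrrg, an orphan nuclear receptor related to the estrogen receptors, measured 0.482, 0.862, 0.303, 0.591 and 0.765 FPKM in saline, 0.0654, 0.0117, 0.0764, 0 and 0.0944 in cisplatin, and 0.125, 0.107, 0.119, 0.154 and 0.189 in doxorubicin libraries. Both drug groups were far below saline, at −2.21 ± 0.25 after cisplatin (limma adjusted p = 5.62e-05) and −1.50 ± 0.25 after doxorubicin (0.000447) in the fit with no filter. Maml3, a Notch coactivator (−1.16 ± 0.17), Tnik, a kinase (−0.81 ± 0.13), Ptprm, a receptor phosphatase (−0.80 ± 0.18), and Prkg1, a cyclic GMP dependent kinase (−0.55 ± 0.15), also fell after cisplatin in that fit. Auts2, Zfpm2, Glis3, Maml2, Ranbp17 and Ccser1 were not called, and Ccser1 had 2 reads in all saline, 0 in all cisplatin and 4 in all doxorubicin libraries.

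Long genes outside the list were counted in the same fit, with the members left out. After cisplatin, the share of genes that fell was 3.51% under 10 kb, 3.56% from 10 to 30 kb, 3.88% from 30 to 100 kb, 8.17% from 100 to 200 kb, 31.3% of 319 genes from 200 to 500 kb and 40.9% of 44 genes of at least 500 kb. After doxorubicin the shares were 12.2%, 15.4%, 18.8%, 23.4%, 25.1% and 36.4%. Among the 363 other tested genes of at least 200 kb, 118 fell and 8 rose after cisplatin with a median change of −0.30, and 96 fell and 26 rose after doxorubicin with a median of −0.20. Falls were thus also frequent in long genes that are not members. Outside the list the largest falls after cisplatin were those of Immp2l, Fhit, Wwox, Large and Naaladl2, and Immp2l, a mitochondrial inner membrane peptidase spanning 931.5 kb, went from 26.9 ± 2.98 to 2.54 ± 0.860 FPKM (SD, n = 5 each). Among the long genes that rose, Exoc4, an exocyst subunit spanning 724.9 kb, went from 1.81 ± 0.437 FPKM to 3.39 ± 0.461 after cisplatin and 7.57 ± 1.32 after doxorubicin. Gria3, a glutamate receptor subunit, rose from 0.250 ± 0.188 to 2.92 ± 1.53 and 7.44 ± 2.53 FPKM. With a saline mean below 0.5 FPKM, Gria3 passed the level rule mostly through drug libraries, so its rise is a description. Of 9 tested genes of a list of giant fragile-site genes, 6 fell and 1 rose after each drug. All 9 are among the 44 genes of at least 500 kb, so the list and that bin are not separate. Immp2l, Fhit, Wwox, Naaladl2 and Exoc4 belong to the list.

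**Figure D4:**
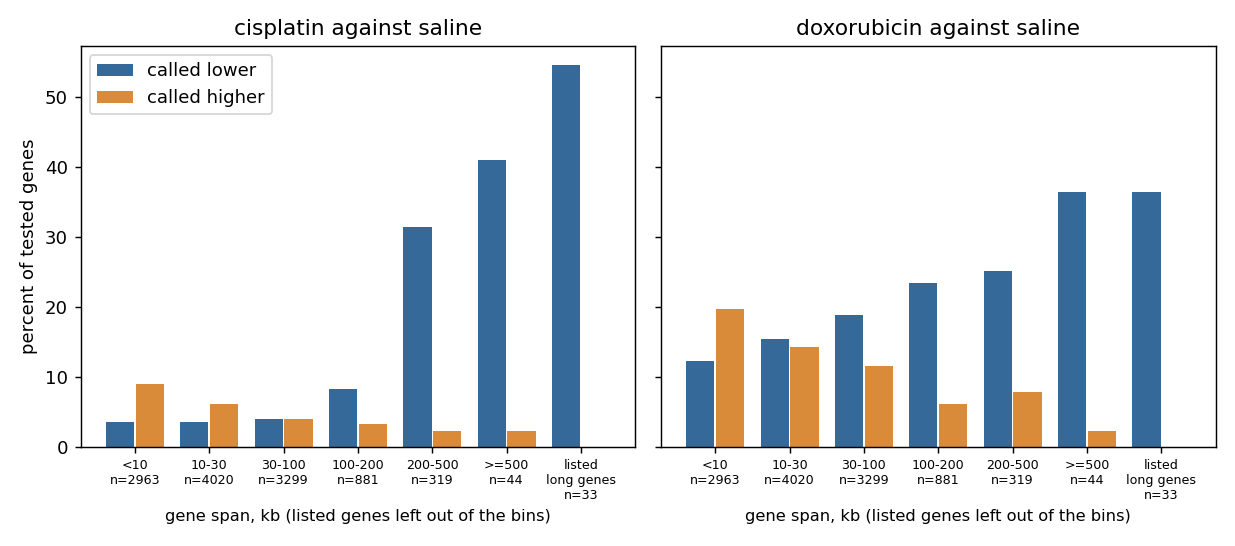
Percent of tested genes called lower (blue) and higher (orange) against saline in bins of gene span in kb, left after cisplatin and right after doxorubicin; the 33 tested members are left out of the bins and shown as the last pair. After cisplatin the lower share steps from 8.17% at 100 to 200 kb to 31.3% at 200 to 500 kb, while after doxorubicin it climbs from 12.2% to 36.4% over the bins.

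Within the 33 members, all of them long, the relation between change and span depended on which span was taken. Across these genes, which share the same 15 libraries and are not independent replicates, the change after cisplatin had Spearman's rho of 0.28 and Pearson's r of 0.20 with the log of the RefSeq span, and after doxorubicin −0.03 and −0.04. With the longest coding transcript of each gene in GENCODE M21 the values after cisplatin were 0.21 and 0.06, and with the shortest −0.33 and −0.29. Ptprd has the longest RefSeq span, but its longest coding transcript covers 649 kb, less than those of Pde4d (1297 kb), Rbms3 (1052 kb) and Pard3b (1003 kb). Of these 4, only Pard3b was called, and it fell after both drugs, as did Supt3, which has the shortest RefSeq span of the tested members (342.2 kb). The change after cisplatin had rho of 0.49 and r of 0.50 with the log of the transcript length used in the table. Smyd3, Gmds, Slc39a11 and Supt3, with short messages, were among the lowest, as was Pard3b with a long one. Fggy and Fto, with short messages of 1905 and 2589 bases, changed by only −0.49 and −0.33, and Fto was not called. Transcript length also sets how many reads a given FPKM rests on, and its part in the result was not tested. Over the 11526 tested genes outside the list, rho between change and span was −0.14 after cisplatin and −0.16 after doxorubicin.

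Relatives of the members with mostly shorter bodies were read from a list of 79 family genes, of which 70 were tested. After cisplatin 2 fell (Ptprb and Tbc1d22a) and 2 rose (Ajuba and Ccser2), with a median change of −0.02. Each count is 2.86% of the relatives, where 5.07% of all tested genes fell and 5.89% rose. Among the 49 under 100 kb, 0 fell and 2 rose. In the span bins under 100 kb, 3.51% to 3.88% of genes fell, so 0 of 49 is near that share. Tbc1d22a, a Rab GTPase activating protein, is itself long at 284.1 kb and fell by 0.56 ± 0.09 on the log2 scale (limma adjusted p = 0.000475). It was the only 1 called after cisplatin of the 7 tested relatives of at least 200 kb. The other 6 were not called, and the median change of the 7 was −0.03. Smyd2, the 42 kb relative of Smyd3, was at 12 FPKM in saline and 12.2 in cisplatin, and fell after doxorubicin to 7.99 FPKM (−0.58 ± 0.12, limma adjusted p = 0.00127). The zinc transporters Slc39a1, Slc39a7 and Slc39a14, all under 50 kb, were not called after cisplatin and rose after doxorubicin by 0.49, 0.65 and 0.69, where Slc39a11 stood at 105% of its saline mean. After doxorubicin 10 of the 70 relatives fell and 6 rose (14.3% and 8.57%, where 16.6% and 14.0% of all tested genes did).

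Markers of other cell types moved in the same livers. Of 14 sinusoidal endothelial markers, 4 fell after cisplatin (Stab2, Clec4g, Dnase1l3 and Mrc1) and 5 fell and 1 rose after doxorubicin, and their summed level was 84.6 to 131 FPKM in saline, 37.3 to 82.0 in cisplatin and 51.1 to 94.8 in doxorubicin libraries. Of 10 Kupffer cell markers 0 were called after cisplatin and 6 rose after doxorubicin, with sums of 71.5 to 127, 82.8 to 115 and 150.4 to 249 FPKM. All 4 tested neutrophil markers rose after doxorubicin, from sums of 4.44 to 8.29 FPKM in saline and 2.87 to 9.31 in cisplatin to 25.2 to 40.1. Stellate cell markers summed to 130.7 to 212, 131 to 203 and 112 to 157 FPKM. Saline 2 gave the highest endothelial and stellate sums and the lowest Kupffer sum of the saline group. The median endothelial sums were 85.4 FPKM in saline, 75.0 in cisplatin and 73.9 in doxorubicin. Of 6 tested lymphocyte markers, 1 fell after cisplatin and 3 after doxorubicin. Of 5 tested cholangiocyte markers, 2 rose after cisplatin and 1 after doxorubicin. No marker of these lists was at 0 in all libraries, and the part of cell makeup in the members' changes was not tested. Left out together, saline 2 and the unnumbered doxorubicin library changed the counts of falls to 20 after cisplatin and 15 after doxorubicin.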

How the data were processed

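Poly(A)-selected RNA from 15 mouse livers was sequenced. Per the submitters' processing notes, the authors used Trim Galore 0.4.1, HISAT2 2.0.1, featureCounts 1.4.6 and edgeR (version not given) with GRCm38 (mm10) to make the deposited FPKM values, which are scaled to gene length and library size. The annotation release and strand setting are not given in the sources used here, so overlapping and antisense genes cannot be told apart. All 15 columns of the table were used.

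FPKM values were transformed to log2(FPKM + 0.1) for genes at or above 0.5 FPKM in at least 5 libraries and fitted with limma 3.58.1 in R 4.3.3 (3 groups and no other term, eBayes with its trend and robust options, two-sided, Benjamini-Hochberg adjustment over 11618 genes at 0.05). The script was tested on simulated data. Library totals and reads per gene were recovered from the FPKM steps with GENCODE M21 exon lengths, within 1e-06 of a read, and count reads assigned to genes. They were used to describe depth, with the recovered transcript lengths, and entered no test. Spans came from the RefSeq gene table (GRCm38.p6), where 20461 genes were found by symbol, 883 by an older symbol and 534 not at all. Tables were handled with Python 3.11.15, pandas 2.3.3 and scipy 1.17.1 and figures drawn with matplotlib 3.10.9.

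Per-library values are given for the 6 largest falls after each drug, the 6 largest differences between the drugs, and the member with the highest saline level in each role. Esrrg was added after its values were seen. The members, the lists of relatives, fragile-site genes and markers, and the rules were chosen with earlier results of these data known. Alternatives covered pseudocounts, filters, scaling, samples in the fit, a replicate block, moderation, the threshold and each library left out. Leaving out saline 2 with the unnumbered doxorubicin library was added after seeing the data. Replicate numbers were not treated as pairs in the main fit.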

Additional observations from a re-analysis of the deposited data

Results flagged for a closer look

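Of 99 groups of 5 values (33 tested members in 3 groups), 12 had a highest value set apart from the other 4 by Dixon's test at its 95% critical value of 0.71, and none a lowest value. For independent, normally distributed values, chance alone sets apart about 1 in 20 such groups. The FPKM values were not transformed here and the members share the same libraries, so the count is not weighed against that rate. Of the 12, 8 lay in the unnumbered doxorubicin library. Ptprd stood at 13.1 FPKM there, where the other doxorubicin libraries ended at 7.75. Tcf4 stood at 4.38 FPKM against at most 1.62, Foxp1 at 5.42 against at most 2.79, Rora at 9.69 against at most 4.94, and Nfia at 12.1 against at most 5.33. Lpp stood at 4.36 FPKM against at most 3.29, Prkce at 2.90 against at most 1.69, and Rbms3 at 1.08 against at most 0.458. Saline 2 was set apart for 3 members: Atxn1 at 5.31 FPKM against at most 3.25, Rbms3 at 0.977 against at most 0.532, and Rad51b at 3.70 against at most 1.49. Cisplatin 2 was set apart for Gmds, at 0.131 FPKM against at most 0.0244, a level resting on 6 reads. The cause of these values was not tested.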

How the results depend on the processing

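Counts and medians are followed under every alternative, and single members where they were called under any setting or moved by at least their SE. No such result reversed. Other than at the stricter threshold, calls held under every alternative that kept the gene for 16 of 18 members after cisplatin. The same held for 6 of 12 after doxorubicin and 9 of 15 between the drugs. Stricter filters on level dropped some members, so their calls were not tested there. Pard3b, Smyd3 and Gmds were fitted under 24 alternatives and Ptprg, Prkce and Prkca under 25, against 26 for members that every filter kept.

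With each library left out, falls ranged from 16 to 20 after cisplatin, 7 to 14 after doxorubicin (7 without doxorubicin 1) and 1 to 3 between doxorubicin and cisplatin. Rises ranged from 0 to 0, 0 to 1 (Gmds) and 10 to 15, and medians from −0.54 to −0.45, −0.35 to −0.23 and 0.27 to 0.33. Pseudocounts of 0.5 and 1 took the cisplatin median to −0.45 and −0.38 and gave 1 member, Gmds, higher after doxorubicin. A mean FPKM of at least 2 left 21 members, 7 lower after doxorubicin and 7 higher in doxorubicin than in cisplatin. Rescaling to TPM gave 2 lower in doxorubicin than in cisplatin. At an adjusted p of 0.01, 6 fell after doxorubicin, and 9 were higher and 0 lower in doxorubicin than in cisplatin. Without saline 2 and the unnumbered doxorubicin library, the cisplatin median was −0.47 and 3 members were lower in doxorubicin than in cisplatin. Other than fewer members tested or a stricter threshold, the cause of these shifts was not tested.

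The replicate block gave 17 falls after cisplatin, 10 after doxorubicin and 9 higher in doxorubicin than in cisplatin. Deviations of same-numbered libraries correlated at −0.47 to 0.02 between saline and cisplatin, −0.21 to −0.02 between saline and doxorubicin and −0.01 to 0.30 between the drugs. Differently numbered libraries gave −0.28 to 0.44, −0.14 to 0.27 and −0.24 to 0.21. Same numbers thus did not go with higher values against saline, while between the drugs the highest value was a same-numbered one. A shared batch was not tested. Median-ratio scaling moved the median of all genes by under 0.1, lost the calls of Ptprk after cisplatin and of Ptprg, Thrb and Lpp after doxorubicin, and gained Atxn1 after cisplatin. A pseudocount of 1 shrank 6 of the 18 falls after cisplatin by over 1.5 times: Smyd3 to −0.91, Pard3b to −0.62, Gmds to −0.55, Prkca to −0.73, Prkce to −0.89 and Ptprg to −0.96. It did the same after doxorubicin to Pard3b (−0.36), Prkca (−0.34) and Smyd3 (−0.34).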
